A study of Mus musculus with 1016 samples.

Results

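The 2-cell mouse embryos compared here either had or had not received messenger RNA for the histone demethylase KDM5B, and the measurement was the replication state of the genome in single cells during S phase. A cell was included when its label gave a collection time of 37 to 40 h after hCG (the hormone injection that triggers ovulation) and its replication score, the percentage of its called bins that were replicated, lay between 10 and 90%. These rules gave 35 cells that expressed KDM5B and 28 control cells, 63 of the 1016 labelled samples of the series. Before the limits on the score, 35 KDM5B cells and 30 control cells had a column of states, from 50 and 32 labelled cells. Embryos of both groups came from (C57BL/6J × CBA)F1 females mated with DBA/2J males. KDM5B zygotes were microinjected with 2 μg/μl of Kdm5b mRNA at 18 h after hCG, and the control carried no treatment in its labels. A group injected with an inactive mRNA was not analysed here, so injection and KDM5B cannot be told apart. The states of KDM5B and control cells were also deposited as separate sets with different dates in their names. Any difference between the sets therefore cannot be told apart from KDM5B either. Single-cell Repli-seq reads genomic DNA, so the level of KDM5B was not measured in these cells.

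Replication timing (RT) is the order in which parts of the genome are copied during S phase, and a region that is replicated in a large share of S-phase cells is an early one. KDM5B removes methyl groups from lysine 4 of histone H3, and its substrate H3K4me3 marks active promoters in most cells but lies in broad domains in the oocyte genome, which the embryo inherits and then loses around genome activation. The comparison asks whether expressing the enzyme in the zygote alters RT at the 2-cell stage. For each 50 kb bin, the proportion of cells carrying the replicated state was computed within 16 overlapping ranges of the replication score and then averaged, so that cells from different parts of S phase count alike, and this mean is called the share. A difference is the KDM5B share minus the control share, and a positive one means earlier replication with KDM5B. The labels tie no cell to an embryo or to an injection session. Each group therefore counts as 1 sample, no test was made between them, and the intervals below are exact Clopper-Pearson intervals at 95% that cover counting error over cells only. For windows and genes picked as the highest or lowest in these cells, the intervals make no allowance for the picking.

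Some cells stood apart from the rest. In 2 KDM5B cells and 3 control cells, 3 or more whole chromosomes carried a single state over all their called bins. Both KDM5B cells were collected at 38 h and had all 19 chromosomes in a single state, 5 of them replicated and 14 not, with scores of 26.4 and 25.2%. Among the control cells, 1 of 37 h had 16 chromosomes fully replicated and chromosomes 4, 11 and 17 fully unreplicated, at a score of 84.8%. Another, of 40 h, had chromosomes 14 and 19 fully replicated and chromosomes 4 and 12 fully unreplicated, and the third, of 38 h, had 3 such chromosomes. Results are given with all cells, and the main ones also without these single-state cells, which leaves 33 KDM5B and 25 control cells.

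Both groups were spread over the same part of S phase. Replication scores ran between 18.8 and 78.5% in KDM5B cells, with a median of 60.6%, and between 25.0 and 84.8% in control cells, with a median of 54.9%. The mean scores were 53.6 ± 16.3% with KDM5B (SD, n = 35) and 53.8 ± 11.9% in the control (SD, n = 28). KDM5B cells were more often near the edges of S phase, with 6 cells below 35% and 5 above 70%, against 1 and 2 control cells. At 40 h the median score was 69.9% in 5 KDM5B cells and 55.3% in 6 control cells.

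**Figure D1:**
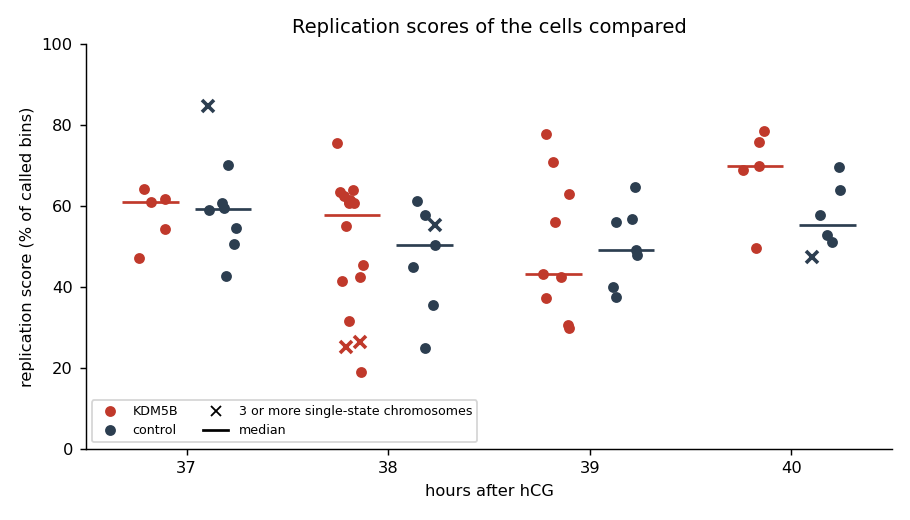
Replication score (percent of called bins replicated, vertical axis) of each cell at 37 to 40 h after hCG, KDM5B cells on the left of each pair and control cells on the right, with the median as a line and single-state cells as crosses. The control cell at 84.8% is the highest of all and is a single-state cell.

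Across the genome the profiles of KDM5B and control cells resembled each other, with differences spread over many regions. Over 46409 bins with at least 10 called cells in each group, the mean share was 0.508 with KDM5B and 0.512 in the control, and Spearman's R between the groups was 0.648 across bins, a description since neighbouring bins share segments. The SD of the difference over bins was 0.132. For the raw share of cells it was 0.128, against an SD of 0.119 that counting 35 and 28 cells alone would give. Bins that were earlier with KDM5B by 0.2 or more made up 6.05% of bins (2806) and bins that were later by as much 6.94% (3220). Without the single-state cells these shares were 8.79 and 6.75%, and R was 0.650.

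The KDM5B profile covered a narrower range of shares. The SD of the share over bins was 0.151 with KDM5B and 0.180 in the control, and 0.162 and 0.190 without the single-state cells. The mean variability score, which is 1 where a bin is replicated in 1 of every 2 cells and 0 where all cells share a state, was 0.758 with KDM5B and 0.707 in the control. Intermediate shares of 0.4 to 0.8 were found in 77.4% of bins with KDM5B and in 69.8% in the control. KDM5B cells were more numerous than control cells, and the part that cell number has in these spreads was not tested.

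The clearest regional difference lay at the chromosome ends, which replicated later with KDM5B. In the last 5 Mb of the 19 chromosomes (1811 bins) the mean share of cells replicated was 0.334 with KDM5B and 0.453 in the control, a difference of -0.119. In the rest of the genome the means were 0.515 with KDM5B and 0.514 in the control. Later bins by 0.2 or more made up 29.3% of the bins at the ends, against 6.94% of all bins, and earlier bins made up 0.828%. The difference was negative on 18 of 19 chromosomes, and chromosome 10 was the exception at 0.0502. Leaving out the single-state cells gave -0.113, with 17 chromosomes below 0.

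The lowering was deepest just inside the last Mb and faded farther from the end. In the last Mb the shares were 0.244 with KDM5B and 0.353 in the control, a difference of -0.108. In the second-last Mb the shares were 0.346 with KDM5B and 0.496 in the control, a difference of -0.149. Between 6 and 7 Mb from the end the difference was -0.0766, and between 9 and 10 Mb it was -0.0313. Beyond 40 Mb it was 0.00956. The chromosome ends that differed most were those of chromosome 14 (chr14:119950001-124950000), with shares of 0.315 with KDM5B and 0.562 in the control, and of chromosome 5 (chr5:146850001-151850000), with 0.360 with KDM5B and 0.582 in the control. The ends of chromosomes 16 and 7 followed, at -0.220 and -0.218. On chromosome 13 the difference was -0.00585, so the size varied widely among chromosomes of one direction.

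Single cells showed the same order. The percentage of the last 5 Mb that was replicated, minus the cell's own replication score, ran from -51.2 to 11.1 points in KDM5B cells with a median of -15.6, and from -21.7 to 5.08 points in control cells with a median of -4.57. The ranges of the groups overlapped. The ends lagged behind the cell's own score in 33 of 35 KDM5B cells (94.3%, interval 80.8 to 99.3%) and in 21 of 28 control cells (75%, interval 55.1 to 89.3%). By hour, the median was -16.5 points in 5 KDM5B cells of 37 h, against -2.99 in 8 control cells. It was -13.9 in 16 KDM5B cells of 38 h, against -4.85 in 7 control cells, and -14.1 in 9 KDM5B cells of 39 h, against -3.52 in 7 control cells. At 40 h it was -45.8 in 5 KDM5B cells, against -5.90 in 6 control cells. The KDM5B median was thus the lower one at each of the 4 hours, with the widest gap at 40 h. The median replication score was also higher in KDM5B cells at 40 h (69.9 against 55.3%), 38 h (57.8 against 50.2%) and 37 h (61 against 59.2%), and lower at 39 h (43.2 against 49.2%). The part of the scores in this gap was not tested.

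**Figure D2:**
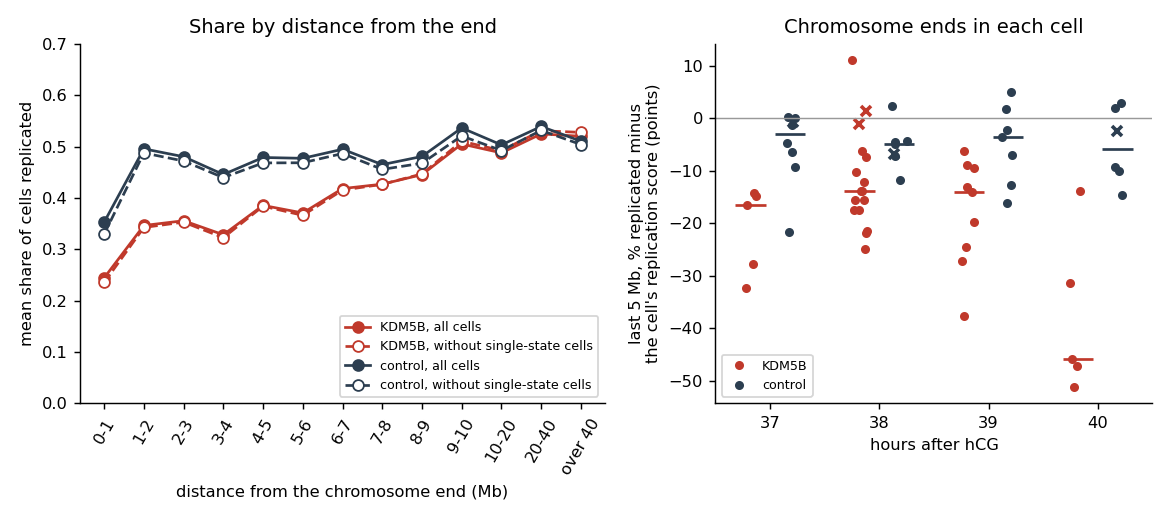
Left, mean share of cells replicated against distance from the chromosome end in Mb, for KDM5B (red) and control (dark) cells, with all cells (filled) and without single-state cells (open). Right, for each cell by hour, the percentage of the last 5 Mb replicated minus its replication score, with the median as a line and single-state cells as crosses. The KDM5B median lies below the control median at every hour, -45.8 against -5.90 points at 40 h.

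Embryos of earlier hours, none of them among the cells above, gave a smaller difference. They were deposited in one set with the later cells of their group. By the methods each bin was corrected by its mean over the cells of a stage, so the earlier and later values need not be independent. The part of this correction in the values of earlier hours, here and below, was not tested. In 21 KDM5B cells of 34 to 36 h the mean share at the ends was 0.413, against 0.439 in 35 control cells of 32 to 35 h, a difference of -0.0265 with 12 chromosomes below 0. Leaving out 4 single-state cells of this control gave -0.0104, with shares of 0.413 and 0.423 and 13 chromosomes below 0. The hours of these groups are not the same, and the control cells themselves ranged between hours, with medians of -10.2 points in 9 cells of 33 h and -1.26 points in 21 cells of 35 h. In the KDM5B cells of 36 h the median was -9.90 points (n = 17). Inhibitors of transcription, set against control cells that the KDM5B comparison shares, gave -0.140 at the ends for α-amanitin at 37 to 39 h (shares of 0.312 and 0.452, 20 and 22 cells) and -0.0507 for DRB at 37 to 40 h (0.402 and 0.453, 44 and 28 cells). Since the controls are the same cells, these values are given side by side only.

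In windows of 2 Mb, differences past 0.2 were rarer than in single bins. Of 1173 windows, 18 were earlier with KDM5B by 0.2 or more (1.53%) and 28 were later (2.39%). Windows that begin within 4 Mb of a chromosome end numbered 25, of which 9 were among the later windows and none among the earlier. Chromosome 4 held 9 of the 18 earlier windows. Without the single-state cells, 37 of the 1173 windows were earlier by 0.2 or more and 27 were later, which reversed the balance. For raw shares centred on the genome, 20 were earlier and 18 later with all cells, and 23 and 25 without the single-state cells. Of the windows called with all cells, 13 of the 18 and 22 of the 28 stayed past 0.2 without these cells. The sign held in all 46. The earlier windows that fell short of 0.2 lay on chromosomes 4 and 11. The direction was the same within each of the 4 hours in 13 of the 18 earlier windows and 17 of the 28 later ones. Because the windows were picked on these same cells, the agreement within hours and without the single-state cells follows in part from the choice. In the embryos of earlier hours, 8 of the 18 and 12 of the 28 windows had the same sign, where 54.8 and 45.2% of all windows had that sign.

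The window that gained most was chr4:54000001-56000000, which holds 3 protein-coding genes. They are Klf4, a transcription factor used in reprogramming to pluripotency, Zfp462, a zinc-finger gene, and Rad23b, a DNA repair factor. The mean share was 0.782 with KDM5B and 0.418 in the control, a difference of 0.364. Most of its bins were replicated in 30 of 35 KDM5B cells (85.7%, interval 69.7 to 95.2%) and in 12 of 28 control cells (42.9%, interval 24.5 to 62.8%). By hour this was 5 of 5 KDM5B and 4 of 8 control cells at 37 h, 13 of 16 and 3 of 7 at 38 h, 7 of 9 and 1 of 7 at 39 h, and 5 of 5 and 4 of 6 at 40 h. The KDM5B proportion was higher at every hour, in the same cells from which the window was picked. The difference was 0.335 when the single-state cells were left out. In the embryos of earlier hours it was 0.0277, with shares of 0.477 with KDM5B and 0.450 in the control. Within the window, Zfp462 (chr4:54945048-55083563) had 0.866 with KDM5B and 0.501 in the control, and Klf4 (chr4:55527143-55532466) had 0.789 and 0.584.

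The second window, chr7:6000001-8000000, had a value in 22 of its 40 bins and holds 41 protein-coding genes. Among them are zinc-finger genes, olfactory and vomeronasal receptor genes, and the imprinted gene Peg3, which is expressed from the paternal allele. The share was 0.499 with KDM5B and 0.222 in the control, and most of its bins were replicated in 19 of 35 KDM5B cells (54.3%, interval 36.6 to 71.2%) and 6 of 28 control cells (21.4%, interval 8.30 to 41%). By hour this was 2 of 5 KDM5B and 3 of 8 control cells at 37 h, 8 of 16 and 0 of 7 at 38 h, 6 of 9 and 1 of 7 at 39 h, and 3 of 5 and 2 of 6 at 40 h. In the embryos of earlier hours this window had a difference of similar size, with shares of 0.555 with KDM5B and 0.323 in the control, 0.232 apart. At Peg3 (chr7:6703892-6730431) the share was 0.651 with KDM5B and 0.294 in the control.

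With at most 2 windows taken from a chromosome, the next were chr4:88000001-90000000 and chr11:102000001-104000000, and 2 more windows of chromosome 4, from 8000001 and from 50000001, lay between them at 0.263 and 0.260. The window on chromosome 4 holds 40 protein-coding genes, among them most type I interferon genes, which serve antiviral defence, and Mllt3, a chromatin reader of transcription elongation, and had shares of 0.586 with KDM5B and 0.321 in the control, with most bins replicated in 24 of 35 KDM5B and 7 of 28 control cells. The window on chromosome 11 holds 56 protein-coding genes, among them Ubtf, a factor of ribosomal RNA transcription, and had 0.622 with KDM5B and 0.376 in the control. Both had positive differences at all 4 hours, of 0.0605 to 0.306 on chromosome 4 and 0.0311 to 0.370 on chromosome 11.

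The latest shift was in chr19:54000001-56000000, where the share was 0.440 with KDM5B and 0.763 in the control, a difference of -0.323. It holds 9 protein-coding genes, among them Tcf7l2, a transcription factor of the Wnt pathway. Most of its bins were replicated in 15 of 35 KDM5B cells (42.9%, interval 26.3 to 60.6%) and 21 of 28 control cells (75%, interval 55.1 to 89.3%). The hours did not run one way, with differences of 0.0276 at 37 h, -0.477 at 38 h, -0.399 at 39 h and 0.0153 at 40 h. In the embryos of earlier hours the difference was 0.0802. The windows chr12:116000001-118000000 (0.273 with KDM5B and 0.568 in the control), chr1:150000001-152000000 (0.553 and 0.843) and chr5:148000001-150000000 (0.353 and 0.642) each had 1 hour of the opposite sign. Those on chromosomes 12 and 5 lie in the last 5 Mb, so they are not separate from the difference of the chromosome ends. On chromosome 5 most bins were replicated in 0 of 5 KDM5B cells and 5 of 6 control cells at 40 h, but in 9 of 16 and 3 of 7 at 38 h. That window, which holds the chromatin protein gene Hmgb1, was the one of these 4 that was also later with KDM5B at the earlier hours, at -0.128.

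**Figure D3:**
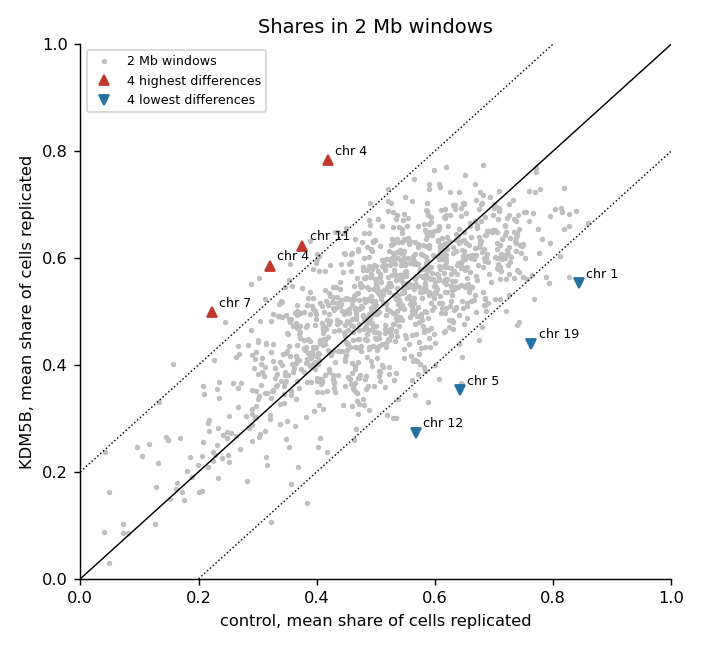
Mean share of cells replicated in 1173 windows of 2 Mb, KDM5B (vertical axis) against control (horizontal axis), with the solid line at equality and dotted lines at differences of 0.2. The 4 highest and 4 lowest named windows are marked with their chromosome, up to 0.782 with KDM5B and 0.418 in the control on chromosome 4.

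By chromosome, the differences were small and several rested on the single-state cells. Chromosome 4 had the highest, with mean shares of 0.525 with KDM5B and 0.424 in the control, a difference of 0.101 that was positive at all 4 hours (0.0500 to 0.0994). Without the single-state cells it was 0.0484, with 2 of 4 hours positive. Of the cells left out, 2 of 3 control cells had chromosome 4 fully unreplicated and 1 of 2 KDM5B cells had it fully replicated. Chromosome 10 was then the highest, at 0.0780 (shares of 0.572 and 0.494), against 0.0358 with all cells. Chromosome 11 moved to -0.00508 without these cells, against 0.0389 with them. Chromosome 5 also changed sign, at 0.0388 without these cells and -0.0151 with them. So did chromosomes 13 (0.0150 without and -0.0203 with them), 15 (0.00302 and -0.00429) and 18 (0.0208 and -0.00518). Chromosome 6 had the lowest value with all cells, -0.0544, and -0.0159 without the single-state cells. Chromosome 17 replicated late in both groups, with a share of 0.412 with KDM5B and 0.380 in the control.

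**Figure D4:**
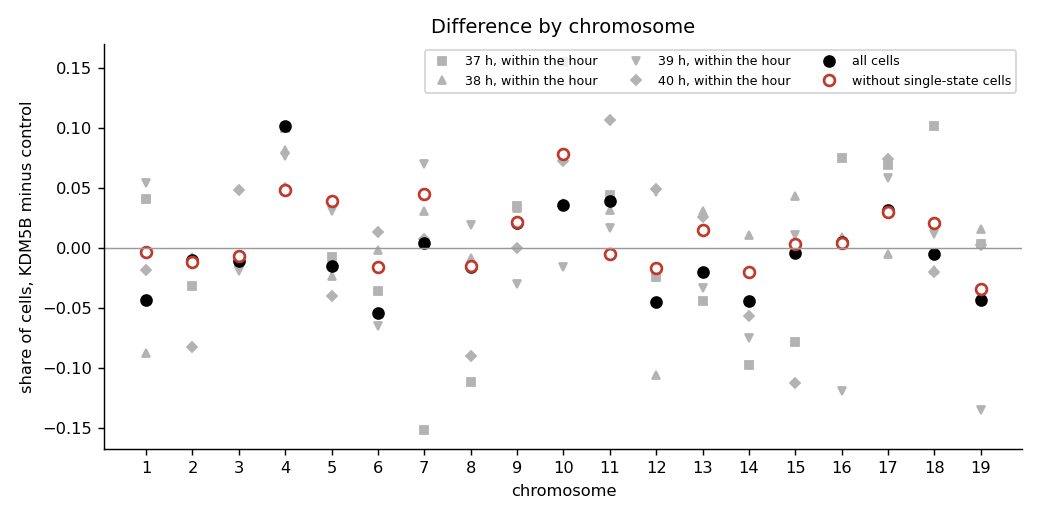
Difference in the mean share of cells replicated, KDM5B minus control, for chromosomes 1 to 19, with all cells (black), without single-state cells (open red) and within each hour from raw shares centred on the genome (grey). Chromosome 4 lies at 0.101 with all cells and at 0.0484 without the single-state cells.

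The difference changed with the RT of normal development, being higher in late regions than in early ones. Bins were ordered by their share in 55 cells of 4-cell embryos and cut into 5 classes of equal size. The class with the lowest share had 0.367 with KDM5B and 0.339 in the control, a difference of 0.0284, and the class with the highest share had 0.602 and 0.624, a difference of -0.0224. Neither direction held in all 4 hours with all cells, at 2 of 4 hours positive in the lowest class and 1 of 4 in the highest. When the single-state cells were left out the differences were 0.0456 in the lowest class and -0.00945 in the highest. Across bins, Spearman's R with the 4-cell share was 0.529 for KDM5B and 0.549 for the control. Among 5 classes of GC content, the poorest had 0.476 with KDM5B and 0.456 in the control, and the richest 0.466 and 0.490. In the richest class the difference within 37 h was -0.154, and the 3 other hours lay between 0.000726 and 0.0109. Bins with 3 or more protein-coding start sites had 0.440 with KDM5B and 0.420 in the control, and bins with none 0.512 and 0.516. In bins with no start site the difference was -0.00401 with all cells and 0.00983 when the single-state cells were left out.

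Among 19937 protein-coding genes with a value, 1286 lay in regions earlier with KDM5B by 0.2 or more (6.45%) and 1238 in later ones (6.21%), and the median difference was 0.00265. These shares were 9.06 and 6.18% when the single-state cells were left out. The chromatin genes that write or remove H3K4 methylation had no common direction, with 10 of 22 higher, 4 earlier and 2 later by 0.2 or more, and a median of -0.0469. Kdm5b itself (chr1:134560171-134635285) had a share of 0.536 with KDM5B and 0.712 in the control, and its close relative Kdm5a 0.727 and 0.871. Their differences, -0.176 and -0.144, were short of the limit of 0.2. Without the single-state cells they were -0.148 and -0.0634. Within hours Kdm5b ran from -0.395 at 38 h to 0.386 at 40 h, and Kdm5a was positive at 2 of 4 hours. Setd1b, an H3K4 methyltransferase, and Kdm2b, a histone demethylase that binds CpG-rich DNA, lie near each other on chromosome 5, and had 0.597 against 0.380 and 0.621 against 0.351. Kmt2a, another H3K4 methyltransferase, had 0.795 with KDM5B and 0.572 in the control. Wdr5, a subunit shared by these methyltransferase complexes, went the other way, with 0.308 and 0.586. In the embryos of earlier hours the median of the list was 0.0427, of the opposite sign.

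Genes of the major genome activation, which begins in the late 2-cell embryo, had a median difference of 0.0246, with 18 of 31 higher (58.1%, against 50.8% of all genes), 2 earlier (6.45%, the share of all genes) and 0 later by 0.2 or more. The median had no stable sign, at 0.0724 when the single-state cells were left out (4 earlier and 1 later), 0.00256 for raw shares centred on the genome, -0.0133 as the mean within hours and -0.0364 without 38 h. Zfp352, a gene of the 2-cell programme on chromosome 4 (chr4:90218820-90225702), was the highest of them, replicated in 30 of 35 KDM5B cells (85.7%, interval 69.7 to 95.2%) and 17 of 28 control cells (60.7%, interval 40.6 to 78.5%). Hspa1b, a heat-shock gene activated early in the embryo, lay in a late region, replicated in 9 of 35 KDM5B and 2 of 28 control cells. Nop56, a nucleolar protein gene, was the lowest at -0.180, short of the limit of 0.2. Oocyte genes had a median of -0.0193, with 14 of 34 higher, 1 earlier and 2 later. Khdc3, a maternal-effect gene, was replicated in 27 of 35 KDM5B and 15 of 28 control cells, whereas Npm2, a chaperone of oocyte chromatin, was replicated in 22 of 35 and 22 of 28, with interval-averaged shares of 0.586 and 0.826.

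H3K4me3 usually gathers at promoters rich in the dinucleotide CpG. The promoters of Klf4 and Zfp352 differ widely in it and are shown because Klf4 lies in the highest window and Zfp352 has the highest difference of the genome activation list. The sequences are 300 bases long, reach from upstream to just past the start site (RefSeq, GRCm38.p6; Klf4 at chr4:55532426-55532725 on the minus strand, Zfp352 at chr4:90218570-90218869 on the plus strand), with each CG in capitals. CG reads the same on both strands, and 94.2% of all 27025 promoters of this length hold at least 1.
Klf4: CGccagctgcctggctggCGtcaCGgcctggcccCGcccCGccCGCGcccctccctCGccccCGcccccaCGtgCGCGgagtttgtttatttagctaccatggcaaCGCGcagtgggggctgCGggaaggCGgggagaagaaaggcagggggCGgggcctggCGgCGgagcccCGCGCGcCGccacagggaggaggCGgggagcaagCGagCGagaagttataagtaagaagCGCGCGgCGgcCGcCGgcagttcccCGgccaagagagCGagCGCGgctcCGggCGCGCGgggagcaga
Zfp352: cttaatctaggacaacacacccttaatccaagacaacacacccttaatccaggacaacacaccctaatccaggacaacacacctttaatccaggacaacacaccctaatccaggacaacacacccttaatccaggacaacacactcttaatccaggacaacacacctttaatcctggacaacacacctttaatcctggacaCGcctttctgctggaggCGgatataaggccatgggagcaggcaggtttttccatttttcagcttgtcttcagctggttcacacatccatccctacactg
The Klf4 promoter holds 40 CG and the Zfp352 promoter 2. Both genes were picked for the difference of their region. A state is given per 50 kb, from values smoothed and segmented over neighbouring bins, and does not resolve a promoter. Any relation to promoter CpG was not tested.

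Pluripotency genes had a median of -0.105, the lowest of the lists for the interval-averaged share, with 14 of 21 lower. By 0.2 or more, 5 were later (23.8%, against 6.21% of all genes) and 3 earlier (14.3%, against 6.45%), and 3 and 2 when the single-state cells were left out. Tdgf1, which encodes a co-receptor of Nodal signalling, was replicated in 15 of 35 KDM5B cells (42.9%, interval 26.3 to 60.6%) and 22 of 28 control cells (78.6%, interval 59 to 91.7%). Pou5f1, the gene of the pluripotency factor OCT4, had the highest difference, with 12 of 35 KDM5B and 5 of 28 control cells. For raw shares centred on the genome the median of this list was -0.0546, the same as that of the trophectoderm list. Centred shares with the single-state cells left out gave -0.0478, above the trophectoderm (-0.0793) and long neuronal (-0.0565) lists, and in the embryos of earlier hours it was 0.0277. Housekeeping genes had 19 of 30 higher (63.3%, against 50.8% of all genes), 4 earlier (13.3%, against 6.45%) and 0 later (against 6.21%). Ppia, a protein-folding enzyme, was the highest, in 27 of 34 KDM5B and 13 of 28 control cells. Gapdh, a glycolytic enzyme, was replicated in 19 of 35 KDM5B and 7 of 28 control cells, and Actb, the cytoplasmic actin, in 22 of 35 and 12 of 28. Trophectoderm and primitive endoderm genes had medians of -0.0694 and -0.0260, and Col4a2, a basement membrane collagen, had 0.440 with KDM5B and 0.784 in the control. Replication factors had 19 of 34 higher, with Orc6, a subunit of the origin recognition complex, at 0.676 with KDM5B and 0.391 in the control. Long neuronal genes had a median of -0.0528, with 25 of 38 lower, and Cntn6, a neuronal adhesion protein, was replicated in 18 of 35 KDM5B and 24 of 28 control cells. Ribosome biogenesis genes were split at 15 of 29 higher, and histone genes had 32 of 78 higher with 11 earlier (14.1%, against 6.45% of all genes) and 0 later. The median of the histone list was -0.0163. Its 78 genes lie on 8 chromosomes, and genes that share bins are not separate measurements. H2afv, the highest of them, lies in the same 50 kb bin as Ppia of the housekeeping list. Imprinted genes spanned both directions, with Peg3 the highest and Cdkn1c, a growth inhibitor expressed from the maternal allele, the lowest at 0.160 with KDM5B and 0.388 in the control.

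The Hox clusters, which pattern the body axis later in development, differed from each other. HoxB on chromosome 11 (10 genes) was earlier with KDM5B, with shares of 0.539 to 0.580 against 0.252 to 0.302 in the control, and all 10 genes were earlier by 0.2 or more. HoxC on chromosome 15 (9 genes) was later, with 0.446 to 0.550 with KDM5B and 0.788 to 0.814 in the control, and all 9 were later by 0.2 or more. This cluster lies in the last 5 Mb of chromosome 15, so its difference is not separate from that of the chromosome ends. HoxD on chromosome 2 and HoxA on chromosome 6 had median differences of -0.0612 and 0.00659. The genes of a cluster share a few bins and are not separate measurements. Within hours, HoxB was positive at all 4 (medians of 0.0648 to 0.609), whereas HoxC was negative at 3 and 0.0970 at 39 h. The HoxC medians were -0.449 at 37 h, -0.114 at 38 h and -0.914 at 40 h. In the embryos of earlier hours the median was 0.0725 for HoxB and -0.0340 for HoxC, and 0.233 for HoxD and 0.199 for HoxA.

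Receptor genes of the olfactory and vomeronasal families lie in large clusters that replicate late in both groups. The 1126 olfactory receptor genes had a median share of 0.263 with KDM5B and 0.178 in the control, and 861 of them were higher with KDM5B (76.5%). Within the class of the lowest 4-cell share, 74.5% of olfactory and vomeronasal receptor genes and 58.2% of other genes were higher. The hours were divided, with medians of the olfactory list of -0.0736 at 37 h, 0.101 at 38 h, 0.113 at 39 h and -0.0139 at 40 h. They cover 588 bins in 64 windows, and their median was positive on 15 of 17 chromosomes. Earlier genes by 0.2 or more were 97 (8.61%, against 6.45% of all genes) and later ones 7 (0.622%, against 6.21%). The 227 vomeronasal receptor genes had a median difference of 0.0488, and Vmn2r51 on chromosome 7 was replicated in 17 of 35 KDM5B cells (48.6%, interval 31.4 to 66%) and 3 of 28 control cells (10.7%, interval 2.27 to 28.2%). The embryos of earlier hours gave the opposite sign, with a median of -0.0777 for olfactory receptor genes and 334 of 1126 higher with KDM5B.

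**Figure D5:**
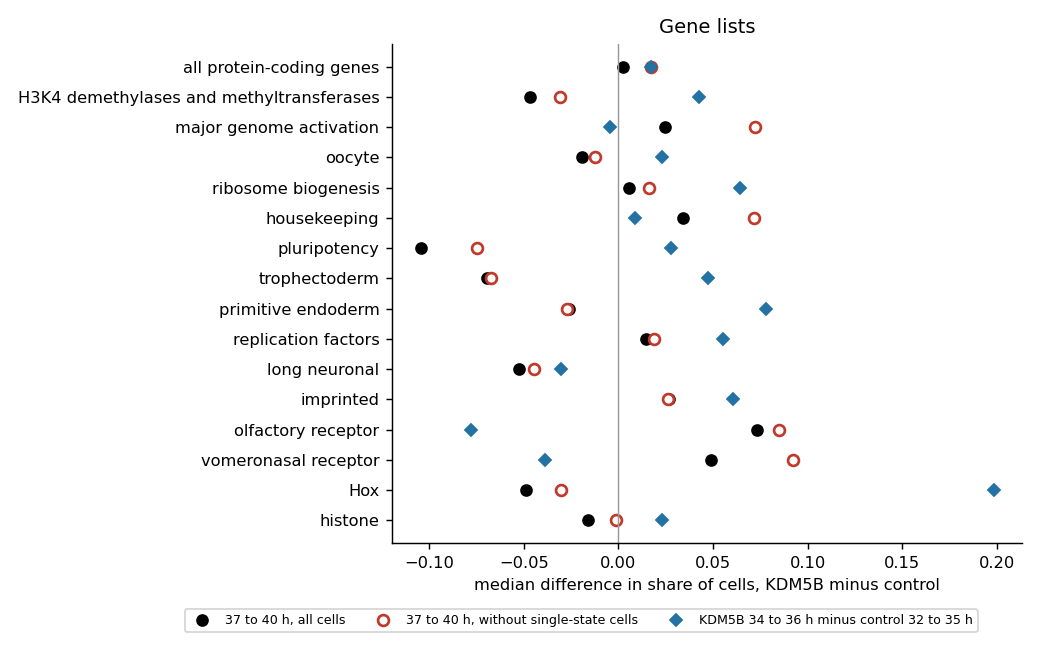
Median difference in the share of cells replicated, KDM5B minus control, of each gene list, at 37 to 40 h with all cells (black), without single-state cells (open red), and between KDM5B cells of 34 to 36 h and control cells of 32 to 35 h (blue). The olfactory receptor list lies at 0.0735 at 37 to 40 h and at -0.0777 at the earlier hours.

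Single cells followed a common pattern only weakly in both groups. Pearson's r across bins between a cell and the share of control embryos of 32 to 35 h, whose cells are in neither group, had a median of 0.193 in KDM5B cells (range -0.0605 to 0.452) and 0.244 in control cells (range 0.0516 to 0.442). Without the single-state cells the medians were 0.196 with KDM5B and 0.249 in the control. Against the control cells of 37 to 40 h, each control cell being left out of its own pattern, the medians were 0.232 with KDM5B and 0.292 in the control. The ranges overlapped almost entirely. Control cells of both spans of hours were deposited in one set and the KDM5B cells in another. The part of this in the gap between the medians was not tested.

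Other 2-cell comparisons with the same control cells gave differences of similar or larger spread. The SD over bins was 0.132 for KDM5B, 0.147 for DRB and 0.161 for α-amanitin at 37 to 39 h. Control cells of 32 to 35 h, set against control cells of 37 to 40 h, gave 0.148, with 7.55% of bins earlier and 10.46% later by 0.2 or more. Untreated embryos collected a few hours apart thus differed in more bins than KDM5B and control embryos of the same hours. The mean scores were 45.8 and 53.8% in the earlier and the later control. Both control groups were deposited in one set, and the KDM5B cells in another. Bins were corrected by their mean over the cells of a stage, so these comparisons are not on like terms. The part of this correction was not tested. Spearman's R was 0.648 for KDM5B, 0.623 for DRB, 0.511 for α-amanitin and 0.578 for the earlier control, and numbers of cells differed between these comparisons.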

How the data were processed

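Members and gene lists were chosen with earlier results of these data known. The authors deposited a binary replication state (1, replicated; 0, not replicated; another kind of value than a count or ratio) per cell in 49264 autosomal bins (50 kb, mm10). By the submitters' processing notes and the methods, reads were aligned with Bowtie2 2.3.5, filtered with SAMtools 1.9 and counted with bedtools 2.29.0, each bin was corrected by its mean over the cells of a stage, and the smoothed, segmented values were split into replicated and unreplicated. Copy number that does not vary within a group is therefore lost. Read depth and quality status of the KDM5B cells were not used here. The study's quality sheet failed 2 of the control cells, both of them single-state cells, and leaving out failed cells was thus possible for the control only.

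Shares were averaged over 16 score intervals 35 points wide. The outermost control intervals hold 1 and 3 cells. Bins needed 10 called cells per group and windows 20 bins. Genes took the mean of their bins (GENCODE M21 positions). Named items are the 4 highest and 4 lowest windows, at most 2 per chromosome, the highest and lowest gene of each list, and marked well-known members; other genes of a window were named after their values were seen. Of 339 genes listed by name, 10 had no position. A class by promoter CpG was dropped because only 77.7% of genes matched a promoter. Alternatives were the raw share, other cells, hours, thresholds and bins. The steps were tested on simulated cells. Python 3.11.15, NumPy 2.4.6, pandas 2.3.3, SciPy 1.17.1 and Matplotlib 3.10.9 were used.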

Additional observations from a re-analysis of the deposited data

Results flagged for a closer look

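Cells were examined within each hour of a group of 4 to 10 cells, for the replication score and for the correlation with the control embryos of 32 to 35 h. This made 14 combinations of hour, group and measure in all, of which chance flags about 1 in 20. The 16 KDM5B cells of 38 h exceed this size and were not examined. Both single-state KDM5B cells are among them, 1 with a correlation of -0.0605, the lowest of the KDM5B cells. A control cell of 37 h had a correlation of 0.0516, far below the 7 others of its hour. This is the single-state cell with the score of 84.8%. A control cell of 39 h had a correlation of 0.442, far above the 6 others.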

How the results depend on the processing

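The lag of the chromosome ends kept its direction under every alternative, at -0.175 to -0.0993 with 1 hour left out, -0.128 for the last 3 Mb and -0.0881 for the last 10 Mb. Pooling all hours lowered the SD of the bin difference to 0.0878, with 1.43% of bins earlier and 0.985% later. A threshold of 0.1 gave 21.5% earlier and 23.3% later, and 0.3 gave 0.976 and 1.37%. With 1 hour left out, bins earlier ranged from 6.61 to 10.0% and bins later from 8.55 to 13.7%, the mean difference from -0.0204 to 0.00771 and its SD from 0.140 to 0.165. The causes were not tested. Without the single-state cells chromosomes 4, 5, 6 and 11 moved by more than the spread between hours, and chromosomes 5, 11, 13, 15 and 18 changed sign. The alternatives that leave out these cells, change the length of the chromosome end or use embryos of earlier hours were chosen after seeing the data. No paired analysis was possible because the result comes from no test and the cell numbers in the labels only name cells. Counting 35 and 28 cells limits what a single bin can show.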
